A study of Mus musculus with 9 samples.

Results

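The genes described here build cholesterol and fatty acids, belong to the machinery of the sterol regulatory element-binding proteins (SREBPs), or move, store or clear sterol. Many are SREBP targets, but the set also holds Abca1, Abcg1, Apoe and Cyp46a1, which export, carry or clear sterol. The genes were chosen by gene name, 40 in all, with earlier results of these data known. Of these, 36 had a probe set assigned to 1 gene, out of 22180 genes measured in mouse anterior cingulate cortex. Idi1 and Scd2 are only on probe sets shared with another gene, Acat2 and Soat1 had no probe set under their own name in the annotation used, and these 4 were not analysed here. Scap had more than 1 probe set, and the brighter was used.

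All mice were of the C57BL/6J strain, and their tissue was taken at ZT 13, that is 13 h after lights on. KT mice received 3 mg/kg ketamine, a blocker of NMDA-type glutamate receptors, by intraperitoneal injection at ZT 5, 8 h before collection. SD mice spent 12 h of enforced wakefulness, beginning at ZT 0, in a round cage with a turning bar, and have no injection in the labels. Their tissue was taken 1 h after the wakefulness ended. Control mice, called saline here, were injected with saline at ZT 5. Each group holds 3 arrays that the titles call biological replicates, with no statement of whether an array is 1 mouse, and p-values measure the spread between these arrays. The labels name no transgene, age or sex. The cage and the lack of an injection are part of every comparison with SD mice.

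Cholesterol is made from acetyl-CoA in a chain of reactions, first through mevalonate to farnesyl pyrophosphate and then through squalene and lanosterol to the sterol ring. When membranes hold little sterol, the escort protein SCAP carries SREBP from the endoplasmic reticulum to the Golgi, where it is cut and released to switch on the genes of the chain, and when sterol is plentiful, INSIG proteins hold SCAP back. Brain cholesterol is made locally because lipoproteins in blood do not cross the blood-brain barrier, with myelinating oligodendrocytes and astrocytes as large producers and neurons as the site where it is cleared by CYP46A1.

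Across the 9 arrays the median intensity lay between 97.7 and 106.2, arrays of the same group correlated at 0.9855 or above on the log2 scale, and no pair of arrays was identical (0 pairs). All 36 genes had a mean above the highest array median, between percentiles 53.1 and 98.7 of all genes. Markers of cortical cells were present: all 10 neuron, 11 astrocyte and 15 oligodendrocyte markers measured had means above that median, and Slc17a7, the glutamate transporter of cortical excitatory neurons, averaged 2874 ± 80.8 in KT, 2744 ± 83.3 in SD and 2795 ± 105 in saline (intensity, SD, n = 3 each). The choroid plexus gene Ttr read 207, 467 and 138 on KT arrays 1 to 3, 89.5, 104 and 428 on SD arrays 1 to 3, and 1624, 8428 and 110 on saline arrays 1 to 3. Saline arrays 1 and 2 stood apart for that gene, and lipid gene counts without single arrays are given below where they differ. SD array 2 and KT array 3 also stood apart in the brighter genes. Among the 14787 genes left without the dimmest 33.3%, the median log2 difference from the saline mean was 0.063 on SD array 2 and -0.095 on KT array 3, and between -0.043 and 0.0092 on the other 4 KT and SD arrays.

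Differences below are of log2(intensity + 16) ± SE from limma, a linear model with moderated variances, fitted over all genes with n = 3 arrays a group. No gene passed limma's test at adjusted p under 0.05 in any of the 3 comparisons (0 of 22180 genes, a background share of 0%). At an unadjusted p under 0.05, 522 genes were lower and 491 higher after ketamine than after saline, 382 lower and 399 higher after sleep deprivation than after saline, and 971 lower and 1132 higher after ketamine than after sleep deprivation. With a variance trend over intensity, limma called 0, 3 and 15 genes in the same order of comparisons, none of them a lipid gene. So no gene below is said to have risen or fallen, and counts of lipid genes use an unadjusted p under 0.05. The median half-width of a 95% interval for a lipid gene was 0.22 on the log2 scale, so differences smaller than that were mostly not detectable with these arrays. In bulk tissue, fewer cells of a type and less RNA per cell cannot be told apart.

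**Figure D1:**
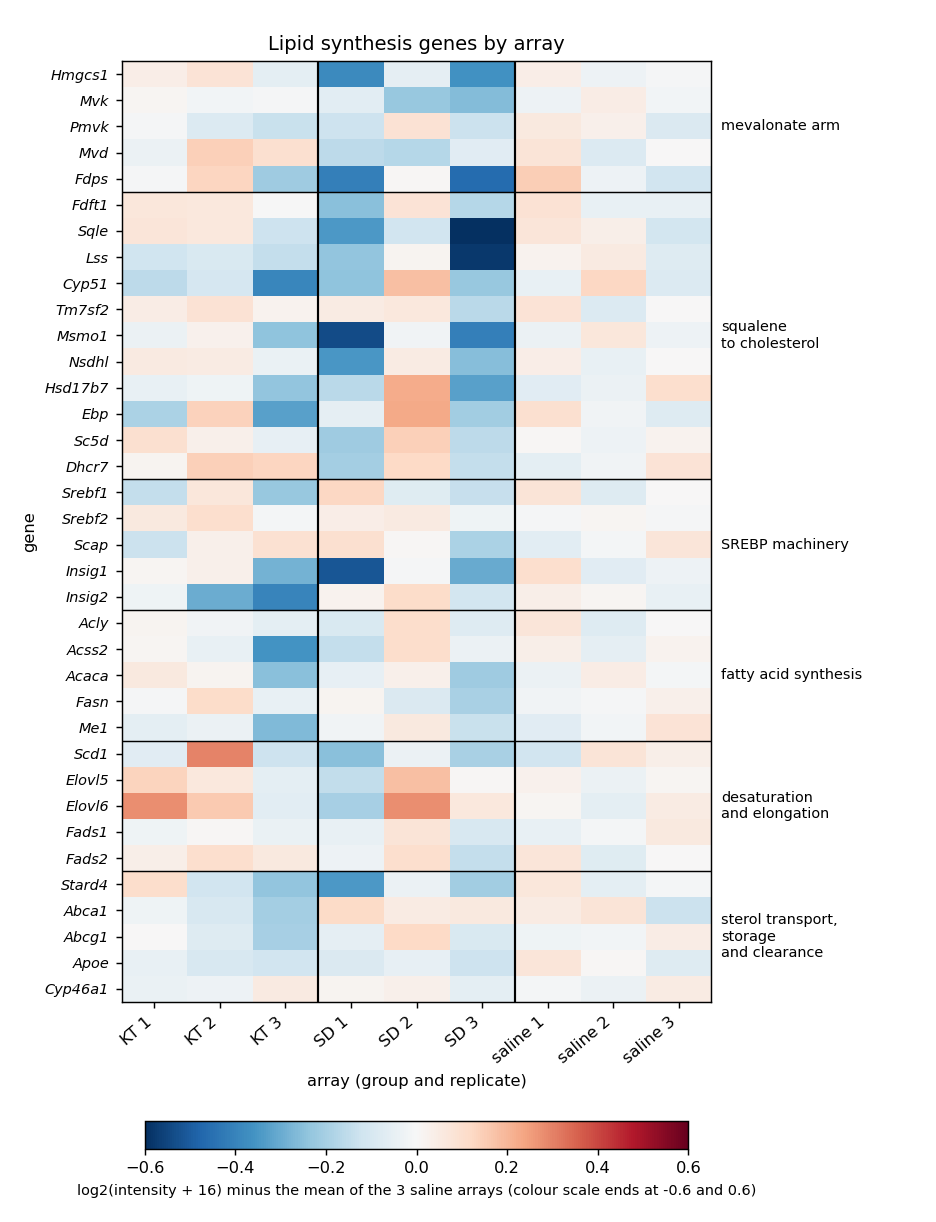
Each row is a lipid gene, grouped by role, and each column an array, with colour giving log2(intensity + 16) minus the mean of the 3 saline arrays (blue lower, red higher, colours saturate at -0.6 and 0.6). Cholesterol synthesis rows are blue on SD arrays 1 and 3 and mostly pale or red on SD array 2, and many rows of all roles are blue on KT array 3.

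After sleep deprivation the genes of cholesterol synthesis had lower means than after saline, all 16 of 16 measured, with a median difference of -0.12 beside -0.0088 over all genes tested, of which 53.4% had a lower mean (52% without the dimmest 33.3% of genes). In this group 5 genes belong to the mevalonate arm (median -0.18) and 11 to the steps from squalene to cholesterol (median -0.095). The whole lipid set had 31 of 36 genes with a lower mean and a median of -0.075. The counts of lower means and the cholesterol median were added after seeing the data, so they are a description and no test. At unadjusted p under 0.05 in limma 4 genes were lower, Hmgcs1, Fdps, Sqle and Msmo1, and 0 higher, where 1.72% of all genes were lower and 1.8% higher. All 4 belong to cholesterol synthesis, and the adjusted p over all genes was 0.9997 or more for every lipid gene.

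Promoter sequences are shown for 4 of the sterol genes with lower means after sleep deprivation, chosen with their values known. The aim is to mark letters that SREBPs or their partner factor NF-Y are known to bind in this gene class. Each line gives the 250 bases before the start site from RefSeq (GRCm38.p6), 5′ to 3′ on the gene's strand, with capitals marking TCACNCCAC, a sterol regulatory element form, or CCAAT, the NF-Y box, on either strand. The windows are chr13:119690101-119690350 on the plus strand for Hmgcs1, chr5:114444019-114444268 on the plus strand for Mvk, chr8:64733579-64733828 on the minus strand for Msmo1 and chr5:28071162-28071411 on the plus strand for Insig1.
Hmgcs1: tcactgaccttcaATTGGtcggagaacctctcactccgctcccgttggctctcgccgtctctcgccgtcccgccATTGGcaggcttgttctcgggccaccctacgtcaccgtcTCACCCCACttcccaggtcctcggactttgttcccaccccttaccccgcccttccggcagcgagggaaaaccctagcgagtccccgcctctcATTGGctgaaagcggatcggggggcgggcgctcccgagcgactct
Mvk: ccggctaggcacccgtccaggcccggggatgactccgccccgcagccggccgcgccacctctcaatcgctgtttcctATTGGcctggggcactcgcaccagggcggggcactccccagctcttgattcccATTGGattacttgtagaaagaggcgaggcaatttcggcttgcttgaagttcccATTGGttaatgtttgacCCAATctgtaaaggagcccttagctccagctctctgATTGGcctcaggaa
Msmo1: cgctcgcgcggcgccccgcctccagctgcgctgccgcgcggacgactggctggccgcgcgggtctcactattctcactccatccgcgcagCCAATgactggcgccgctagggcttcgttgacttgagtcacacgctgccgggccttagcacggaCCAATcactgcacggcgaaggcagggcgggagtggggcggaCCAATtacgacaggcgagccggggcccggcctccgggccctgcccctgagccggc
Insig1: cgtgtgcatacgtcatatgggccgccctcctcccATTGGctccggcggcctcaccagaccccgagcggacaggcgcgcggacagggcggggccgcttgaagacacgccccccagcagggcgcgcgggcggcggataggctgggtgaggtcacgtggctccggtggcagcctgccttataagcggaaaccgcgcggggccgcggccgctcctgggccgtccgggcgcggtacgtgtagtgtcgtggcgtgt

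In these windows Hmgcs1 holds the sterol element letters once, 137 to 129 bases before the start, and CCAAT or its reverse complement 3 times. The Mvk, Msmo1 and Insig1 windows hold no TCACNCCAC match, so only CCAAT is in capitals there. CCAAT or its reverse complement occurs 5 times in Mvk, 3 times in Msmo1 and 1 time in Insig1. In Hmgcs1 it does not overlap the sterol element match. RefSeq promoters were found for 29 of the 36 genes, and Sqle and Fdps were among those without one. Of these 29 genes 22 (75.9%) hold CCAAT in at least 1 window, beside 37.5% of 27025 genes of all kinds, and 1 (3.45%) holds TCACNCCAC, beside 1.22% of those genes. By window, 33.8% of 32851 promoters hold CCAAT and 1.05% hold TCACNCCAC. CACGTG, the E-box that SREBPs can also bind and that is not in capitals above, occurs in 7 (24.1%) of the 29 genes, beside 6.86% of all genes. Insig1 is among these 7 genes, and Hmgcs1, Mvk and Msmo1 are not. A match is a description of these letters and no measure of binding.

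Hmgcs1 encodes the cytosolic HMG-CoA synthase that feeds the mevalonate arm. Its intensities were 1609, 2027 and 1628 on SD arrays 1 to 3, against 2160, 2054 and 2092 on saline arrays 1 to 3. All SD arrays lay below all saline arrays, narrowly in the case of SD array 2. The difference was -0.27 ± 0.10, or 0.832-fold (limma, unadjusted p = 0.0224), and 3.54% of all genes were lower with groups that did not overlap, which also held for Mvk and Sqle among the lipid genes (3 of 36).

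Mvk encodes mevalonate kinase, which adds the first phosphate to mevalonate. It read 169, 149 and 145 on the SD arrays and 173, 184 and 175 on the saline arrays, so every SD array was below every saline array, SD array 2 included. Its difference was -0.18 ± 0.09 (limma, unadjusted p = 0.0572). Among the next enzymes, Pmvk, phosphomevalonate kinase, differed by -0.06 ± 0.10 and Mvd, the decarboxylase that yields isopentenyl pyrophosphate, by -0.13 ± 0.09, with overlapping groups in both.

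Fdps encodes farnesyl pyrophosphate synthase, the last enzyme of that arm. Its intensities were 264, 357 and 254 on SD arrays 1 to 3 and 395, 348 and 327 on saline arrays 1 to 3. SD arrays 1 and 3 were below all saline arrays, while SD array 2 was above saline arrays 2 and 3. The difference was -0.29 ± 0.13, or 0.819-fold (limma, unadjusted p = 0.0478).

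Sqle encodes squalene epoxidase, an oxygen-dependent and highly regulated step. It had 349, 413 and 282 on SD arrays 1 to 3, against 472, 460 and 414 on saline arrays 1 to 3. No SD array reached the lowest saline array, but SD array 2 was only just below it. This was the largest difference of the lipid set against saline, -0.37 ± 0.12 or 0.776-fold (95% interval -0.63 to -0.10, limma, unadjusted p = 0.0111).

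Msmo1, the sterol C4-methyl oxidase, read 482, 696 and 527 on the SD arrays and 687, 741 and 689 on the saline arrays. SD arrays 1 and 3 lay far under all saline arrays and SD array 2 within their range. The difference was -0.32 ± 0.13, or 0.801-fold (limma, unadjusted p = 0.0239). Lss, the lanosterol synthase that closes the ring, followed at -0.27 ± 0.13 with 190, 229 and 146 on the SD arrays and 230, 235 and 213 on the saline arrays, and the groups overlapped.

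The other 8 genes of these steps had differences of smaller size. Nsdhl, a sterol dehydrogenase of C4 demethylation, was at -0.19 ± 0.11, Fdft1, the squalene synthase, at -0.11 ± 0.10, and Cyp51, the lanosterol demethylase, at -0.10 ± 0.13. Hsd17b7 (-0.09 ± 0.13), Sc5d (-0.08 ± 0.10), Dhcr7 (-0.07 ± 0.10), Tm7sf2 (-0.02 ± 0.09) and Ebp (-0.01 ± 0.13), which act on the later sterols, made up the rest. SD arrays overlapped saline arrays in each of these 8 genes.

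**Figure D2:**
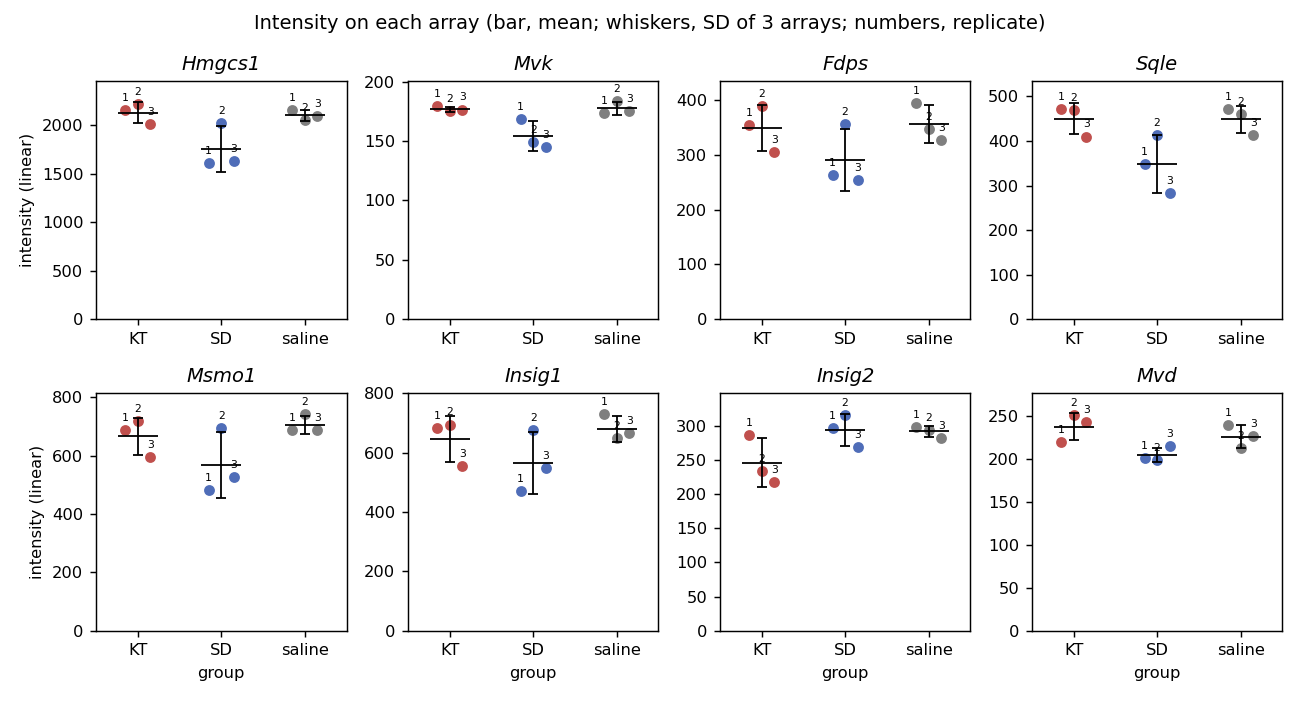
Linear intensity on each array for 8 lipid genes, with KT, SD and saline from left to right (points, arrays numbered by replicate, horizontal bar, mean, whiskers, SD of 3 arrays). SD arrays 1 and 3 are low for Hmgcs1, Fdps, Sqle, Msmo1 and Insig1 and SD array 2 is near saline, whereas KT arrays 2 and 3 are low for Insig2.

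Most of these genes were lowest on SD arrays 1 and 3, but Mvd and Mvk were also low on SD array 2. Relative to the saline mean the median of the 16 cholesterol synthesis genes was -0.23, 0.056 and -0.24 on SD arrays 1 to 3, against 0.040, -0.025 and -0.024 on saline arrays 1 to 3. Of the 14787 brighter genes described above, 8534, 5198 and 8543 were below the saline mean on SD arrays 1 to 3. Of the 16 cholesterol synthesis genes 15, 5 and 16 were below it on these arrays. Without SD array 2 all 16 had a lower mean, with a median of -0.22, and 10 lipid genes were lower at unadjusted p under 0.05, beside 2.96% of all genes in that fit. Without SD array 3 the lower means numbered 13 of 16 and 20 of 36, beside 52.7% of all genes, with 0 lipid genes lower at unadjusted p under 0.05, beside 6.11%. Without SD array 1 they numbered 15 of 16 and 27 of 36, beside 49.4% of all genes, with 2 lipid genes lower at unadjusted p under 0.05, beside 1.49%. That count was also 2 without saline array 1, beside 1.24% of all genes, and 2 without saline array 2, beside 1.27%. After quantile normalization, which gives every array the same distribution of values, 16 of 16 had a lower mean, and Hmgcs1, Mvk, Fdps, Sqle, Lss, Msmo1, Nsdhl and Insig1 were the 8 lipid genes lower at unadjusted p under 0.05, beside 2.4% of all genes.

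Of the 5 genes of the SREBP machinery 3 had a lower and 2 a higher mean after sleep deprivation (median -0.029), with 0 at unadjusted p under 0.05. Srebf2, whose product favours cholesterol genes, read 1055, 1065 and 1007 on SD arrays 1 to 3 and 1020, 1033 and 1021 on saline arrays 1 to 3, a difference of 0.02 ± 0.08. Srebf1, whose product favours fatty acid genes, read 272, 235 and 224 on the SD arrays and 263, 234 and 248 on the saline arrays (-0.03 ± 0.11). Scap read 710, 667 and 580 on the SD arrays and 634, 659 and 699 on the saline arrays (-0.03 ± 0.10). In these 3 genes the groups overlapped, and the 95% intervals of the differences were -0.16 to 0.21, -0.26 to 0.20 and -0.25 to 0.19.

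The INSIG proteins are encoded by Insig1 and Insig2. Insig1, itself an SREBP target in textbook accounts, read 471, 675 and 547 on SD arrays 1 to 3 and 729, 647 and 664 on saline arrays 1 to 3. SD arrays 1 and 3 were below all saline arrays and SD array 2 among them, and the difference was -0.28 ± 0.13 or 0.826-fold (limma, unadjusted p = 0.0517). Insig2 read 296, 316 and 269 on the SD arrays and 298, 294 and 282 on the saline arrays, a difference of 0.01 ± 0.11 with SD arrays on both sides of saline. Whether Insig1 and Insig2 differed from one another was not tested.

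Fatty acid genes had a median of -0.023 after sleep deprivation, with 8 of 10 lower, and whether they differed from the cholesterol genes was not tested. The 5 genes that supply and build the chain, Acly, Acss2, Acaca, Fasn and Me1, all had lower means but by no more than 0.09 on the log2 scale (median -0.033). Fasn, the fatty acid synthase, read 966, 898 and 831 on the SD arrays and 938, 949 and 975 on the saline arrays, a difference of -0.09 ± 0.09. Acaca, the acetyl-CoA carboxylase that makes malonyl-CoA, was at -0.08 ± 0.11 and Acly, which makes cytosolic acetyl-CoA, at -0.02 ± 0.09.

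Of the 5 desaturases and elongases 3 had a lower and 2 a higher mean (median -0.022). Scd1, the desaturase that makes oleate, was the farthest from saline at -0.16 ± 0.12, with 711, 827 and 739 on the SD arrays and 783, 897 and 871 on the saline arrays. Elovl6 and Elovl5, which lengthen fatty acids, were at 0.05 ± 0.12 and 0.01 ± 0.10, and the desaturases Fads1 and Fads2 were both at -0.02 ± 0.09. SD and saline arrays overlapped for all 10 fatty acid genes, and 0 of them had an unadjusted p under 0.05 in limma.

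Of the 5 genes that move, export or clear sterol 4 had a lower mean after sleep deprivation (median -0.0086), with 0 at unadjusted p under 0.05. Stard4, a sterol transfer protein and SREBP target, was at -0.20 ± 0.11, with 116, 147 and 129 on the SD arrays and 160, 145 and 150 on the saline arrays. Abca1 and Abcg1, exporters that are induced when sterol is plentiful, were at 0.07 ± 0.09 and -0.01 ± 0.10. Apoe, the main apolipoprotein of the brain's lipoprotein particles, was at -0.09 ± 0.09. Cyp46a1, the neuronal 24-hydroxylase that lets cholesterol leave the brain, read 1289, 1303 and 1220 on the SD arrays and 1263, 1241 and 1317 on the saline arrays, a difference of -0.0037 ± 0.09 (95% interval -0.19 to 0.18).

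After ketamine the cholesterol genes had means on both sides of saline, 8 lower and 8 higher of 16, with a median of 0.00017 beside -0.015 over all genes. The whole lipid set had 22 of 36 lower (median -0.020), where 54.6% of all genes had a lower mean. Among the 14787 genes without the dimmest 33.3%, which are closer to the lipid genes in brightness, 64.5% had a lower mean (median -0.041). At unadjusted p under 0.05 in limma 1 lipid gene, Insig2, was lower and 0 higher, where 2.35% of all genes were lower and 2.21% higher. The smallest adjusted p in the set was 0.870. The direction of the set's median depended on scaling: it was 0.037 after quantile normalization and -0.027 after median centring.

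Insig2, the INSIG gene that in textbook accounts is not driven by SREBP itself, read 285, 234 and 218 on KT arrays 1 to 3, against 298, 294 and 282 on saline arrays 1 to 3. KT arrays 2 and 3 were below all saline arrays and KT array 1 lay among them. The difference was -0.24 ± 0.11 or 0.847-fold (limma, unadjusted p = 0.0431, adjusted p = 0.870). Without KT array 1 the difference was -0.35 (unadjusted p = 0.00612). Without KT array 2 it was -0.21 (0.122), without KT array 3 -0.16 (0.175), without saline array 1 -0.22 (0.106), without saline array 2 -0.23 (0.0898) and without saline array 3 -0.26 (0.0616). With arrays weighted by how well they follow the model, where KT array 2 had a weight of 7.92 and the next highest was 2.08, the difference was -0.27 ± 0.06 (limma, adjusted p = 0.0315). In that weighted fit 1439 of 22180 genes passed adjusted p under 0.05, and 16.2% of all genes were lower at unadjusted p under 0.05.

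After ketamine 3 of the 5 mevalonate genes had a lower and 2 a higher mean, with a median of -0.0035. Hmgcs1 read 2158, 2225 and 2015 on KT arrays 1 to 3 and 2160, 2054 and 2092 on saline arrays 1 to 3, a difference of 0.02 ± 0.10 with a 95% interval of -0.20 to 0.24. Mvk read 179, 175 and 177 on the KT arrays and 173, 184 and 175 on the saline arrays (-0.0035 ± 0.09). KT and saline arrays overlapped in both genes, as they did for Mvd (0.07 ± 0.09), Pmvk (-0.07 ± 0.10) and Fdps (-0.03 ± 0.13).

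Among the sterol ring genes Cyp51 and Lss had groups that did not overlap, both lower, where 7.89% of all genes were lower and 6.48% higher without overlap. Cyp51 read 314, 327 and 265 on the KT arrays and 341, 384 and 332 on the saline arrays, a difference of -0.21 ± 0.13 (limma, unadjusted p = 0.109). Lss read 207, 211 and 203 on the KT arrays and 230, 235 and 213 on the saline arrays (-0.12 ± 0.13). Both gaps between the nearest arrays were small. Sqle was at 0.0039 ± 0.12, with 472, 469 and 410 on the KT arrays and 472, 460 and 414 on the saline arrays, so the groups covered almost the same range. Msmo1 was at -0.08 ± 0.13, Dhcr7, which makes cholesterol from its last precursor, at 0.09 ± 0.10, and the other 6 between -0.13 and 0.05.

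Of the other regulators after ketamine, Srebf2 read 1066, 1100 and 1016 on KT arrays 1 to 3 (0.05 ± 0.08), Srebf1 223, 261 and 210 (-0.10 ± 0.11), Scap 605, 679 and 708 (-0.0019 ± 0.10) and Insig1 684, 694 and 556 (-0.08 ± 0.13), all overlapping the saline values given above. The 10 fatty acid genes split 5 lower and 5 higher, from Acss2, the acetyl-CoA synthetase, at -0.13 ± 0.11 to Elovl6 at 0.12 ± 0.12. All 5 transport and clearance genes had lower means, between -0.11 for Abca1 and -0.0057 for Cyp46a1, with 0 at unadjusted p under 0.05. On KT arrays 1 and 2, 18 and 14 of the 36 lipid genes lay below the saline mean. Of the 14787 brighter genes described above, 6804, 9355 and 9975 lay below it on KT arrays 1 to 3. On KT array 3 alone 30 of the 36 lipid genes lay below it, with a median of -0.12. That array also had the lowest median of the brighter genes given above, and the lipid genes with a lower mean than saline numbered 19 of 36 without it (53.5% of all genes), 15 after quantile normalization (49.6%), 15 with array weights (57.3%) and 23 after median centring (56.8%).

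**Figure D3:**
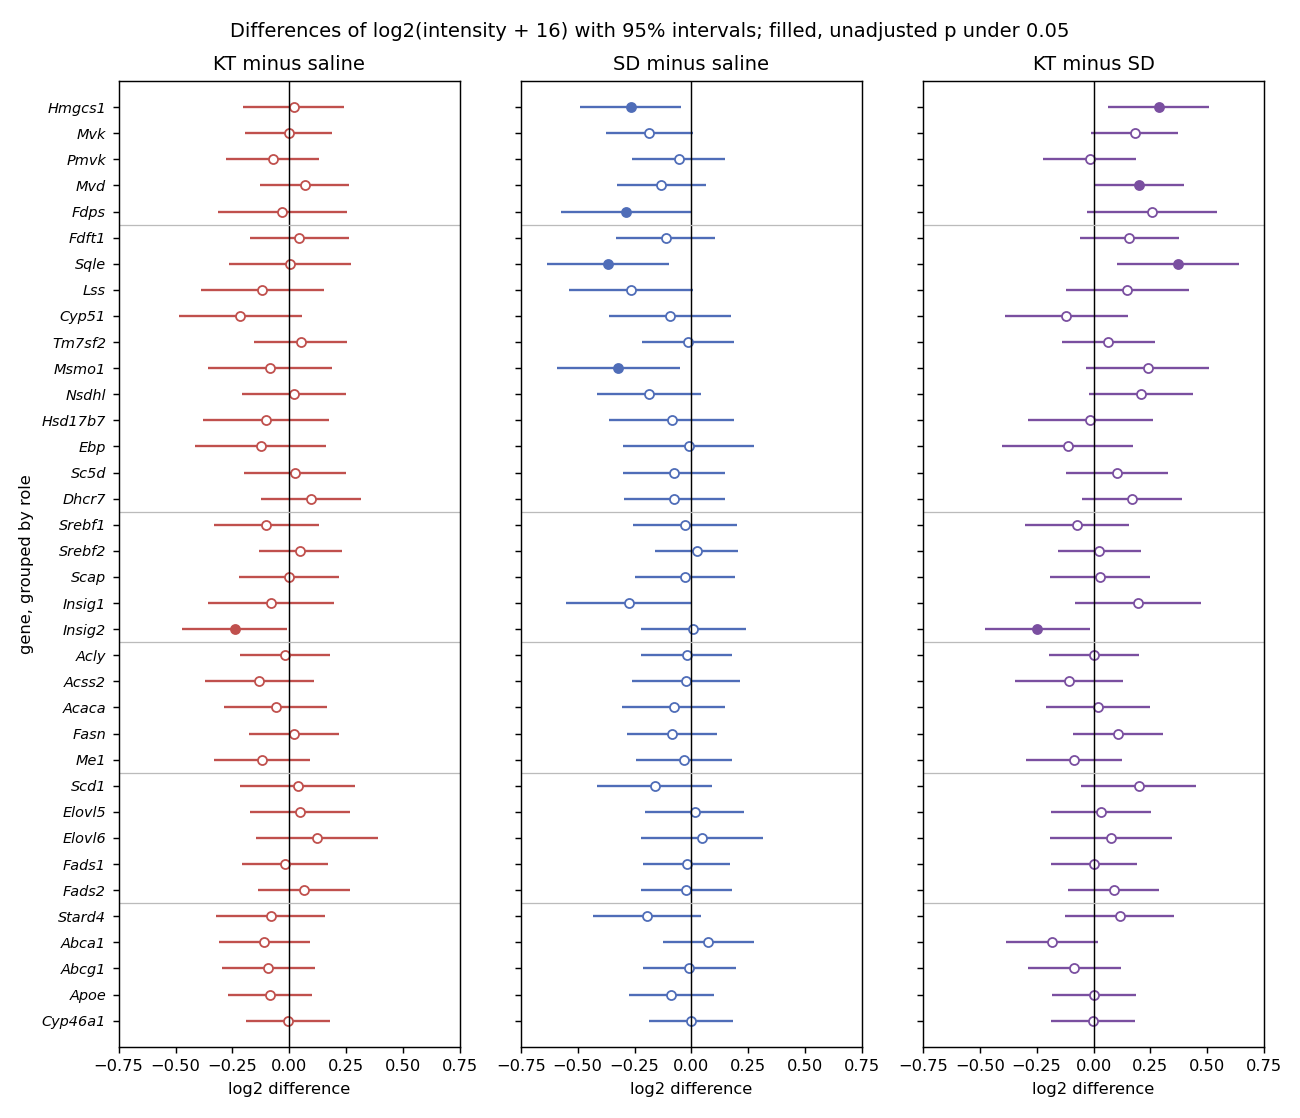
Difference of log2(intensity + 16) with its 95% interval for each of the 36 lipid genes, for KT minus saline (left), SD minus saline (middle) and KT minus SD (right, filled points, unadjusted p under 0.05 in limma). In the middle panel all 16 cholesterol synthesis genes lie left of 0 and most intervals cross it, and in the left panel the same genes scatter around 0.

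Set directly against sleep deprivation, ketamine had higher means in 12 of the 16 cholesterol synthesis genes, with a median of 0.16 beside -0.012 over all genes. In the whole lipid set 25 of 36 were higher (median 0.048), where 53% of all genes, and 63.1% of those without the dimmest 33.3%, were lower. At unadjusted p under 0.05 in limma 3 lipid genes were higher, Hmgcs1, Mvd and Sqle, and 1 was lower, Insig2, where 5.1% of all genes were higher and 4.38% lower. The smallest adjusted p was 0.437. This comparison shares its arrays with both comparisons above and is no separate evidence for them.

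Sqle had 472, 469 and 410 on KT arrays 1 to 3 against 349, 413 and 282 on SD arrays 1 to 3, a difference of 0.37 ± 0.12 or 1.29-fold (limma, unadjusted p = 0.0104). The groups touched, as KT array 3 was just under SD array 2. Hmgcs1 had 2158, 2225 and 2015 on the KT arrays against 1609, 2027 and 1628 on the SD arrays (0.29 ± 0.10, 1.22-fold), again with KT array 3 just under SD array 2. Mvd had 220, 251 and 243 on the KT arrays and 201, 199 and 215 on the SD arrays, with no overlap and a difference of 0.20 ± 0.09. Groups without overlap and higher in KT made up 4.53% of all genes, and Mvk, with 179, 175 and 177 on the KT arrays and 169, 149 and 145 on the SD arrays, was the other such lipid gene (0.18 ± 0.09).

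Insig2 stood in the opposite direction at -0.25 ± 0.11, with 285, 234 and 218 on the KT arrays and 296, 316 and 269 on the SD arrays, and KT array 1 was above SD array 3. It kept an unadjusted p under 0.05 in limma without KT array 1 (0.00533) and without SD array 3 (0.02). In no other fit that left out a KT or SD array did it do so. Abca1 was lower on every KT array (276, 262 and 242) than on any SD array (306, 291 and 294), a difference of -0.18 ± 0.09, where 5.54% of all genes were lower without overlap. Lipid genes higher under ketamine at unadjusted p under 0.05 numbered 10 without SD array 2, beside 3.08% of all genes in that fit, and 1 without SD array 3, beside 13.2%. They numbered 1 without KT array 2, beside 3.97%, 6 without KT array 3, beside 2.49%, and 11 after quantile normalization, beside 4.99%. Without SD array 1 only Mvk and Sqle were higher at that threshold, beside 3.36% of all genes. Over all genes, 214 passed adjusted p under 0.05 without SD array 3, with 0 lipid genes among them.

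A second list of 35 other sterol and SREBP pathway genes, of which 26 were measured, gave a check on neighbouring parts of the pathway. The other 9 were not analysed here. After sleep deprivation 14 of the 26 had a lower mean (median -0.0056), beside 53.4% of all genes. At unadjusted p under 0.05, 0 were lower and 2 higher, Lrp8 and Ch25h, beside 1.72% and 1.8% of all genes. After ketamine 19 of 26 had a lower mean (median -0.057), beside 54.6% of all genes and 64.5% of those without the dimmest 33.3%, with 0 at unadjusted p under 0.05 in either direction (2.35% of all genes lower and 2.21% higher). Npc2, which hands sterol out of lysosomes, and Cyp7b1, an oxysterol hydroxylase, were the 2 of 26 whose KT arrays all lay below all saline arrays, a share near the 7.89% of all genes.

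Lrp8, a receptor for apolipoprotein E and reelin, read 764, 764 and 657 on SD arrays 1 to 3 and 561, 655 and 609 on saline arrays 1 to 3. All SD arrays were above all saline arrays (3.57% of all genes were higher in this way), by a narrow margin at the closest pair, and the difference was 0.25 ± 0.10 (limma, unadjusted p = 0.0242). On the KT arrays it read 606, 579 and 541, all below the SD arrays (-0.33 ± 0.10). Ch25h, the cholesterol 25-hydroxylase, whose product restrains SREBP cleavage, read 114, 81.8 and 115 on the SD arrays and 85.6, 81.5 and 73.1 on the saline arrays, a difference of 0.31 ± 0.12 (limma, unadjusted p = 0.0199). SD arrays 1 and 3 were above all saline arrays and SD array 2 among them. Ch25h was dim, with a mean of 88.5 over the 9 arrays (percentile 35.5 of all genes), below every array median. Vldlr, a lipoprotein receptor of the same family as Lrp8, was lower on every SD array (387, 392 and 327) than on any saline array (419, 430 and 439), at -0.22 ± 0.11 (limma, unadjusted p = 0.0701). Genes lower in this way numbered 1 of 26, a share near the 3.54% of all genes.

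Cell type markers also differed between these arrays, and their part in the lipid values was not tested. Oligodendrocyte markers had a median difference from the saline mean of 0.046, 0.44 and -0.27 on KT arrays 1 to 3, -0.23, -0.034 and 0.023 on SD arrays 1 to 3 and -0.0071, 0.12 and -0.084 on saline arrays 1 to 3. Their summed intensity ranged from 5964 to 10178 in KT, 6106 to 7563 in SD and 6770 to 8122 in saline. SD array 3, the lowest array for the 16 cholesterol genes, was the highest SD array for oligodendrocyte markers. SD array 1, the lowest SD array for those markers, had a cholesterol median of -0.23. On KT arrays 1 to 3 the cholesterol medians were 0.0038, 0.055 and -0.0915. KT array 2 was the highest and KT array 3 the lowest KT array for both lists. In SD against saline 12 of 15 oligodendrocyte markers had a lower mean (median -0.15), with 0 at unadjusted p under 0.05.

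Astrocyte markers had medians of -0.11, 0.069 and -0.067 on SD arrays 1 to 3, and their summed intensity ranged from 10865 to 12251 in KT, 10915 to 12635 in SD and 11358 to 12368 in saline. SD array 2 was the highest SD array for these markers and for the cholesterol genes. It was also the highest SD array for neuron and microglia markers and for the brighter genes given above. For oligodendrocyte, endothelial and choroid plexus markers another SD array was highest. Endothelial markers were higher on SD arrays 1 to 3 (0.25, 0.15 and 0.13) than on the KT arrays (0.019, -0.15 and -0.18), with 0.069, -0.072 and 0.040 on the saline arrays, and 7 of 9 were lower in KT than in SD at unadjusted p under 0.05, beside 4.38% of all genes. Neuron markers stayed between -0.074 and 0.038 on all 9 arrays, with -0.074, 0.038 and -0.053 on SD arrays 1 to 3.

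**Figure D4:**
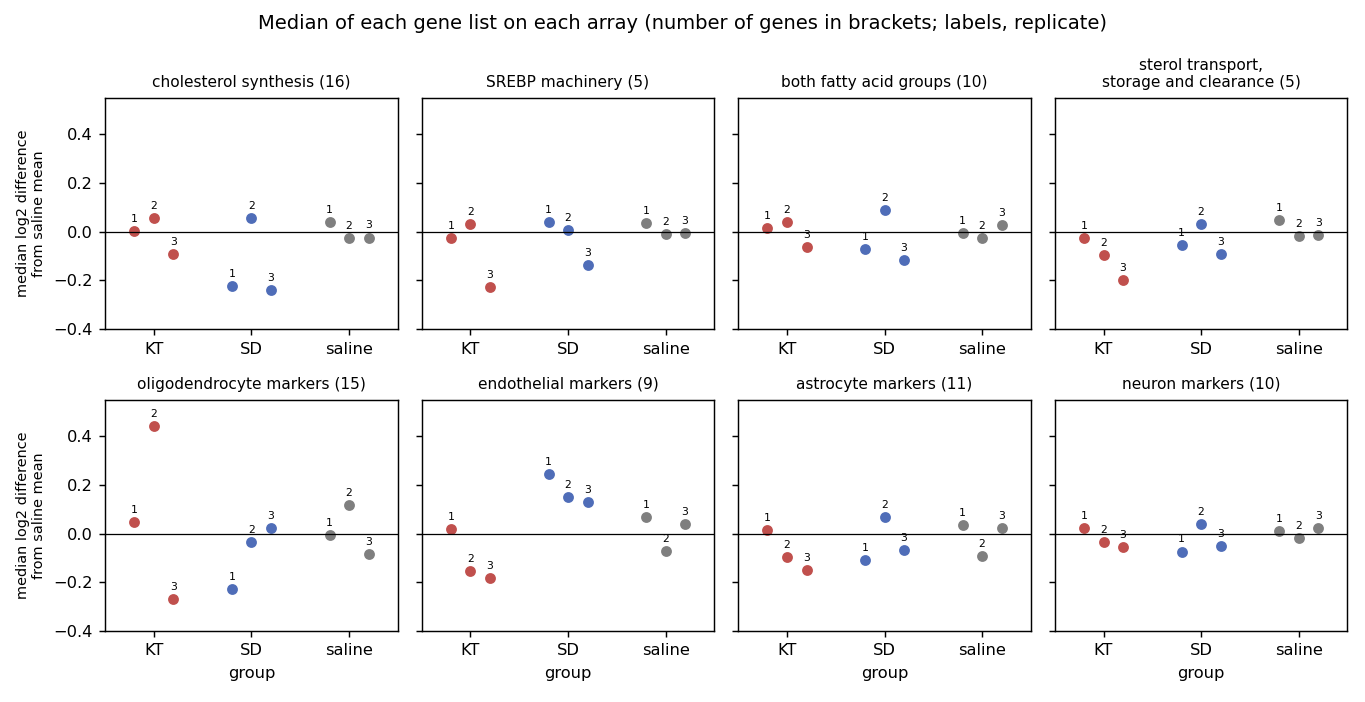
Median difference of log2(intensity + 16) from the saline mean for 4 lipid groups (upper row) and 4 cell type marker lists (lower row) on each array, with KT, SD and saline from left to right. Cholesterol synthesis genes are lowest on SD arrays 1 and 3, oligodendrocyte markers spread from -0.27 to 0.44 within KT, and endothelial markers are highest on the SD arrays.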

How the data were processed

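Total RNA of the microdissected anterior cingulate cortex was hybridised to 9 Affymetrix arrays, 3 a group. The deposited table holds linear intensity values of 41345 probe sets, made by the authors with Affymetrix Expression Console 1.1.1 and PLIER 2.0, per the submitters' processing notes. For background correction and normalization between arrays, the step is not given in the sources used here. Values were used as deposited, as log2(intensity + 16), an offset that damps differences of dim genes.

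Gene symbols came from the platform annotation, updated by gene identifier to RefSeq. Of the probe sets 23521 had 1 symbol, 1814 several and 16010 none, and 23328 matched RefSeq. The probe set with the highest mean was taken for 1082 genes that had more than 1, leaving 22180 genes. R 4.3.3 with limma 3.58.1 (lmFit and eBayes) was run with all 9 arrays in 1 fit, 6 residual degrees of freedom and Benjamini-Hochberg adjustment over all genes, at 0.05. The fit was tested on simulated data. The genes and lists were chosen with earlier results of these data known. Every measured lipid gene is named. Arrays are given singly for genes with an unadjusted p under 0.05 or groups that do not overlap, for the SREBP machinery, and, chosen after their values were seen, for Fasn, Scd1, Stard4 and Cyp46a1. Of the other pathway genes those with an unadjusted p under 0.05 are named, with Vldlr, Npc2 and Cyp7b1 chosen after their values were seen. Promoters came from RefSeq (GRCm38.p6). The labels state no batch. The number of arrays limits precision. Alternatives covered offset, normalization, filter, probe set choice, variance model, array weights, a replicate block and each array left out.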

Additional observations from a re-analysis of the deposited data

How the results depend on the processing

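In sleep deprivation against saline, all 16 cholesterol synthesis genes had a lower mean under every setting that kept all arrays, and 13 to 16 with an array left out (median -0.22 to -0.078). Lipid genes with a lower mean numbered 20 without SD array 3 and 34 without SD array 2, of 36, beside 52.7% and 54% of all genes. Those lower at unadjusted p under 0.05 were 7 with an offset of 64, 8 after quantile normalization, 7 without the dimmest 33.3% of genes and 8 with array weights, beside 4. Of all genes 1.59%, 2.4%, 1.58% and 3.66% were lower in these fits, beside 1.72%. With an array left out the lipid count ran from 0 (without SD array 3, 6.11% of all genes) to 10 (without SD array 2, 2.96%). Genes called over the table were 1 with median centring, 3 with a variance trend and 0 to 4 with an array left out, beside 0.

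In ketamine against saline, array weights gave 1439 of 22180 genes called, of which 1 was a lipid gene (Insig2). They gave 5 of 16 cholesterol genes with a lower mean, beside 8, where 57.3% of all genes had one. They also gave 1 lipid gene higher at unadjusted p under 0.05, beside 11.2% of all genes. Insig2, the 1 lower lipid gene, lost that threshold with an offset of 1 (0 genes), and the count was 0 to 1 with an array left out.

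In ketamine against sleep deprivation, 14 genes were called with an offset of 64, 5 without the dimmest 33.3% of genes, 15 with a variance trend, 42 with array weights and 0 to 214 with an array left out (214 without SD array 3). Lipid genes higher at unadjusted p under 0.05 were 6, 11, 5 and 10 with an offset of 64, quantile normalization, a variance trend and array weights, beside 3. Of all genes 4.4%, 4.99%, 4.7% and 9.74% were higher in these fits, beside 5.1%. With an array left out 1 to 10 lipid genes were higher, beside 2.49% to 13.2% of all genes. Lipid genes lower at that threshold were 2 with an offset of 64, beside 5.61% of all genes. With an array left out they were 0 to 1, beside 2.51% to 8.3%. Lipid genes with a lower mean were 6 with array weights, beside 11, where 53% of all genes had one. They were 6 to 18 with an array left out, beside 50.8% to 54.1% of all genes. For cholesterol synthesis this count was 2 after quantile normalization and 0 with array weights, beside 4, and 0 to 6 with an array left out. No alternative but array weights put a lipid gene past adjusted p 0.05. The cause of these moves was not tested.

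Same-numbered arrays did not deviate together in all pairs (correlations from -0.20 to 0.44 over genes), so the numbers were not taken as pairs. Differently numbered arrays had correlations from -0.51 (KT array 3 and SD array 2) to 0.54 (KT array 1 and SD array 2). A replicate block gave 0 genes called in each comparison. At unadjusted p under 0.05 in that fit 6 lipid genes were lower in SD than in saline, beside 2.11% of all genes. In KT against SD 4 lipid genes were higher, beside 6.41% of all genes, and Mvd had an unadjusted p of 0.0642 in limma. The counts of lower means, of lipid genes past adjusted p and the cholesterol medians, with their alternatives, were added after seeing the data.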
